A study of Mus musculus with 6 samples.

Results

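The genes described here are the 5 subunits of the transcription factor NF-kB (Nfkb1, Nfkb2, Rel, Rela and Relb) and 5 genes of its inhibitor family and feedback (Nfkbia, Nfkbib, Nfkbie, Nfkbiz and Tnfaip3), called inhibitors below although Nfkbiz can also act as a co-activator. They were taken by gene name, 10 of the 54532 entries of the deposited table. All 10 were among the 11708 genes tested, which are those with a mean level of at least 1 FPKM (counts scaled for gene length and library size). Their mRNA was measured in RAW264.7 cells, a mouse macrophage line of tumour origin, cultured for 3 d. In the C/D group (3 libraries) the cells were kept with GelMA/PEDOT:PSS+PLLA/PDA, a methacryloyl gelatin hydrogel combined with a conducting polymer blend and PLLA/PDA, and were exposed to low-frequency ultrasound (48 kHz, 5 min). In the Gel/S group (3 libraries) they were kept static with GelMA alone. The design holds this single comparison, of the conductive gel with ultrasound against the plain gel without it. Material and ultrasound differ together, so their parts cannot be told apart, and the cell line stands in for primary macrophages. The table's columns marked US were assigned to C/D because only C/D received ultrasound, and all directions below depend on that assignment. The labels do not say that replicates were separate cultures, so p-values measure only the spread between these libraries, which may be technical.

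NF-kB works as a dimer of subunits that share a Rel homology domain. Rela, Relb and Rel carry activation domains. Nfkb1 and Nfkb2 encode precursors whose C-terminal parts resemble the IkB inhibitors and are removed to give the DNA-binding partners. In resting cells IkB proteins keep the dimers in the cytoplasm, and the IKK kinase complex marks these inhibitors for decay when Toll-like or TNF receptors are engaged. Released NF-kB then induces inflammatory genes and also its own inhibitors, among them Nfkbia and Tnfaip3, a negative feedback that is well known in macrophages.

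That feedback works through kB sites in promoters, so the promoters of the 10 genes were searched on both strands for the kB consensus motif and for the shorter GGGNNTTCC, whose matches can lie inside a consensus match. RefSeq promoter sequences (GRCm38.p6, from 250 bases before to 50 bases after each annotated start) matched 7 members, Nfkb2, Rel, Rela, Nfkbia, Nfkbib, Nfkbie and Tnfaip3. The consensus was found for 5 of these 7, and for 5.14% of the 27025 genes with such sequences. The shorter motif was found for 4 of the 7 and for 6.58% of all genes. The Rela and Nfkbib windows held neither, which says only that these letters are not in these windows. The 150 bases before the start are shown for 2 genes that were lower in C/D, Nfkb2 (chr19:46304587-46304736, plus strand) and Tnfaip3 (chr10:19015411-19015560, minus strand), and for 2 that were not called, Rel (chr11:23770970-23771119, minus strand) and Nfkbia (chr12:55492648-55492797, minus strand). Each is given 5′ to 3′, and capitals mark the motif matches. The RefSeq starts can differ from the gene ends given below. By those ends, the Tnfaip3 stretch lies inside the gene (19000910 to 19015657), and so does the whole Nfkbib window (28758251 to 28767512).
Nfkb2: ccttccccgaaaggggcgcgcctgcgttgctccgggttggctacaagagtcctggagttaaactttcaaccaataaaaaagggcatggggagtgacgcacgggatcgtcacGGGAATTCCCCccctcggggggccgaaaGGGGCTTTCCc
Tnfaip3: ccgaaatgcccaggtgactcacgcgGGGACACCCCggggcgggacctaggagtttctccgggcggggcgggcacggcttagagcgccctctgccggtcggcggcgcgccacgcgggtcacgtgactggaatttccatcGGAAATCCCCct
Rel: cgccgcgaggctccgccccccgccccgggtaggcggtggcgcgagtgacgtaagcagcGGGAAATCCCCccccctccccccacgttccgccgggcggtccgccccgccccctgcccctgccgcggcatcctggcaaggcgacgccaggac
Nfkbia: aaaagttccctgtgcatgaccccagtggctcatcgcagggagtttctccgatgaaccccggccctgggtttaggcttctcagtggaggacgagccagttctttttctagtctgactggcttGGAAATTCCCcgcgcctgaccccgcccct
The Nfkb2 and Tnfaip3 stretches each hold 2 separate runs of matching bases, and the Rel and Nfkbia stretches 1 each. Only a single window is shown for Nfkb2 and for Tnfaip3. Other windows of Nfkb2 held 2 runs and 1 run, and another window of Tnfaip3 held 0. The other Nfkb2 windows overlap and share 1 run, which is the same site. By the listed ends, all these other windows lie inside their genes. Among members not shown, the Nfkbie window held 1 run and the Rela window 0, and both genes fell. The window of Nfkbib, which was not called, held 0. Motif matches were thus present both in genes that fell and in genes that were not called, and a match is not evidence of binding.

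Total counts were 12818831 to 15802627 in C/D and 15579679 to 16525699 in Gel/S, and the members had 310 to 4824 counts in a library. All 8 macrophage markers checked were tested, with summed levels of 9840 to 9955 FPKM in C/D and 11869 to 12719 FPKM in Gel/S. Most of that sum was Lyz2, a lysozyme gene, with 7922 to 8085 FPKM in C/D and 9627 to 10754 FPKM in Gel/S, which did not pass (edgeR adjusted p = 0.0649). Of the 8 markers, 1 was called, Csf1r, the receptor for the macrophage growth factor, which fell. Of 6 osteoclast markers 3 were tested, with sums of 37.1 to 42.2 FPKM in C/D and 47.3 to 49.3 FPKM in Gel/S. Here Acp5 rose and Dcstamp fell, and Calcr, Oscar and Ctsk were below the level tested. Sums over 5 fibroblast markers (2 of them at 0) and over 5 lymphocyte markers (1 at 0) stayed below 1 FPKM in every library. Mitochondrial transcripts took 9.17% to 10.4% of the counts in C/D and 5.59% to 9.02% in Gel/S, lowest in Gel/S 1, and their part in the results below was not tested. With bulk RNA, fewer expressing cells and less mRNA per cell cannot be told apart.

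In C/D, 4 of the 5 subunit genes fell to between 67.8% and 74.9% of Gel/S by the edgeR fold change. By mean FPKM they were at 65.8% to 72.7%. Rel, which had a higher level in C/D, did not pass the test. Among the inhibitors, Tnfaip3 and Nfkbie fell, while Nfkbia, by far the most abundant of them, Nfkbib and Nfkbiz did not pass. Of all genes tested, 27.0% were called in either direction, 13.9% fell and 13.1% rose (edgeR quasi-likelihood test, Benjamini-Hochberg adjusted p under 0.05), against 4 of 5 subunits and 2 of 5 inhibitors that fell. That is 1532 genes risen and 1631 fallen, where limma on TPM (FPKM rescaled to an equal sum in every library) gave 633 and 1510, with the same 4 subunits and 2 inhibitors called as fallen. The median log2 fold change was −0.51 over the subunits and −0.21 over the inhibitors, and 0.01 over all genes tested. Levels of the groups did not overlap for 5 of 5 subunits and for 2 of 5 inhibitors, where 46.2% of all genes tested showed no overlap. C/D lay wholly below Gel/S for 6 of the 10 genes, and for 27.1% of all genes tested.

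**Figure D1:**
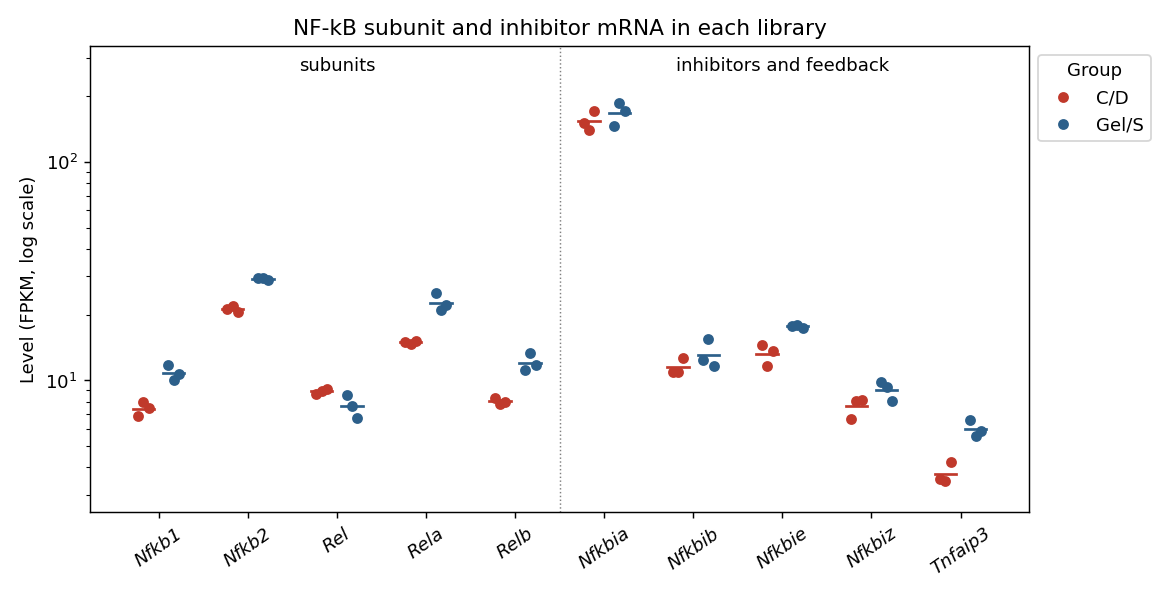
Level of each gene in each library (FPKM, log axis), C/D in red and Gel/S in blue, with 1 point per library and a bar at the group mean. The 3 C/D points of Nfkb1, Nfkb2, Rela, Relb, Nfkbie and Tnfaip3 lie below all Gel/S points, those of Rel lie just above them, and those of Nfkbia, Nfkbib and Nfkbiz overlap with them.

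Rela, the main activating subunit of the classical pathway (ENSMUSG00000024927, chromosome 19, 5637483 to 5648130, plus strand, GRCm38), had 15.1, 14.7 and 15.1 FPKM in C/D 1 to 3, against 25.1, 21.1 and 22.1 FPKM in Gel/S 1 to 3. The C/D libraries sat closely together and well below the lowest Gel/S library. The mean was 15.0 ± 0.196 FPKM in C/D and 22.7 ± 2.07 FPKM in Gel/S (SD, n = 3 each), and log2 C/D over Gel/S was −0.56 (SE 0.0896, edgeR adjusted p = 0.00143).

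Relb, the subunit that pairs with the Nfkb2 product in the alternative pathway (ENSMUSG00000002983, chromosome 7, 19606217 to 19629438, minus strand), had 8.35, 7.83 and 8.01 FPKM in C/D 1 to 3, against 11.1, 13.4 and 11.7 FPKM in Gel/S 1 to 3. The groups were apart, and Gel/S 2 stood highest. The log2 fold change was −0.54 (SE 0.101, edgeR adjusted p = 0.00326).

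Nfkb1, which encodes the usual partner of Rela (ENSMUSG00000028163, chromosome 3, 135584655 to 135691547, minus strand), had 6.87, 7.95 and 7.45 FPKM in C/D 1 to 3, against 11.8, 10.1 and 10.7 FPKM in Gel/S 1 to 3. All C/D libraries were below all Gel/S libraries. Its log2 fold change was −0.51 (SE 0.0887, edgeR adjusted p = 0.00237). In the GENCODE M21 annotation, Gm43430 overlaps Nfkb1 on the same strand without shared exons. It had 1, 2 and 4 counts in C/D 1 to 3, against 5, 1 and 0 counts in Gel/S 1 to 3.

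Nfkb2, which encodes the partner of Relb (ENSMUSG00000025225, chromosome 19, 46304737 to 46312090, plus strand), was the most abundant subunit mRNA by the listed lengths. Its level was 21.3, 22.0 and 20.5 FPKM in C/D 1 to 3, against 29.6, 29.5 and 28.8 FPKM in Gel/S 1 to 3. Both groups were tight and lay clearly apart, at a log2 fold change equal to −0.42 (SE 0.0781, edgeR adjusted p = 0.00329). In GENCODE M21, exons of Psd and of the non-coding gene AC114539.1, both on the opposite strand, overlap those of Nfkb2. The gene ends listed for Nfkb2 differ from those in GENCODE M21. Whether the overlap holds for the gene model that was counted is thus not known. The sources used here do not say whether counting used strand. AC114539.1 had no counts listed under that name. Psd had 173, 219 and 205 counts in C/D 1 to 3, against 348, 371 and 309 counts in Gel/S 1 to 3, and Nfkb2 had 912 to 1165 counts in C/D, against 1471 to 1566 counts in Gel/S. Psd was thus also lower in C/D, and its part in the Nfkb2 difference was not tested.

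Rel, the c-Rel subunit of blood cells (ENSMUSG00000020275, chromosome 11, 23736847 to 23770970, minus strand), ran the other way. It had 8.71, 8.96 and 9.15 FPKM in C/D 1 to 3, against 8.59, 7.61 and 6.76 FPKM in Gel/S 1 to 3. Every C/D library was above every Gel/S library, although C/D 1 and Gel/S 1 nearly met. The log2 fold change was 0.27 (SE 0.0946, 95% interval 0.06 to 0.47) with an edgeR adjusted p of 0.0536, so Rel did not pass. It did pass without Gel/S 1 (log2 fold change 0.35, edgeR adjusted p = 0.00602) and with upper quartile scaling (0.30, edgeR adjusted p = 0.0326). Over the alternatives the edgeR, DESeq2 and limma adjusted p ranged from 0.00602 to 0.474.

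**Figure D2:**
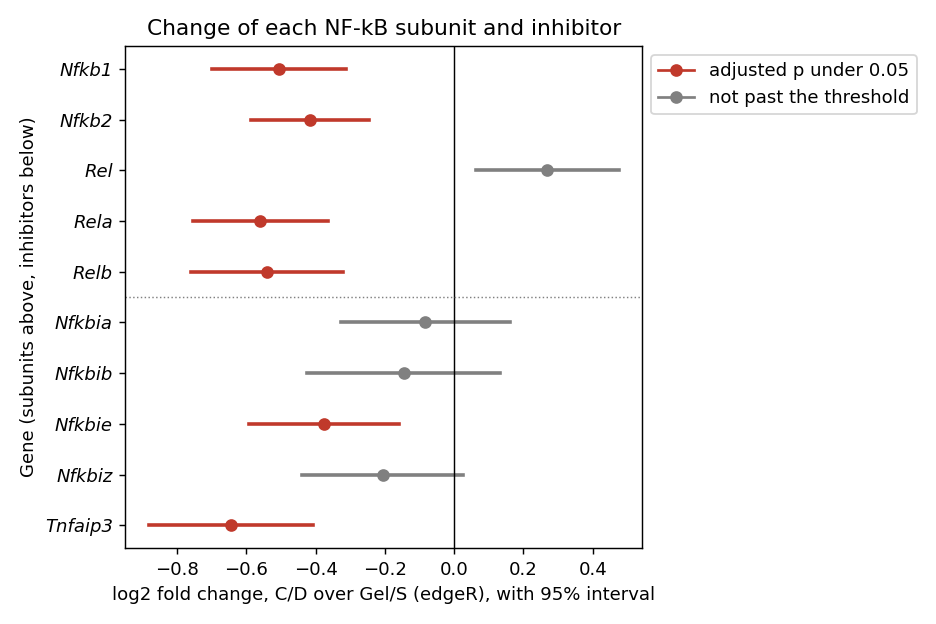
log2 fold change of each gene, C/D over Gel/S, with its 95% interval from the edgeR fit. Genes with an adjusted p under 0.05 are in red and the others in grey. Intervals of Nfkb1, Nfkb2, Rela, Relb, Nfkbie and Tnfaip3 lie below 0, that of Rel lies above 0 before adjustment for the number of genes, and those of Nfkbia, Nfkbib and Nfkbiz include 0.

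The make-up of subunit mRNA was described from the same levels. The falls above thus enter these shares, which are given without a test. Rel supplied 14.4%, 14.6% and 15.2% of the summed subunit FPKM in C/D 1 to 3, against 9.97%, 9.31% and 8.44% in Gel/S 1 to 3. Rela supplied 24.7 ± 0.608% in C/D and 27.5 ± 1.63% in Gel/S (SD, n = 3 each), also without overlap, while the shares of Nfkb1, Nfkb2 and Relb overlapped. The ratio of Rel to Rela FPKM was 0.578, 0.608 and 0.606 in C/D 1 to 3, against 0.343, 0.360 and 0.306 in Gel/S 1 to 3. This ratio was singled out after its values were seen and is given without a test. The summed FPKM of the subunits was 60.7 ± 0.712 in C/D and 82.6 ± 3.17 in Gel/S (SD, n = 3 each).

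**Figure D3:**
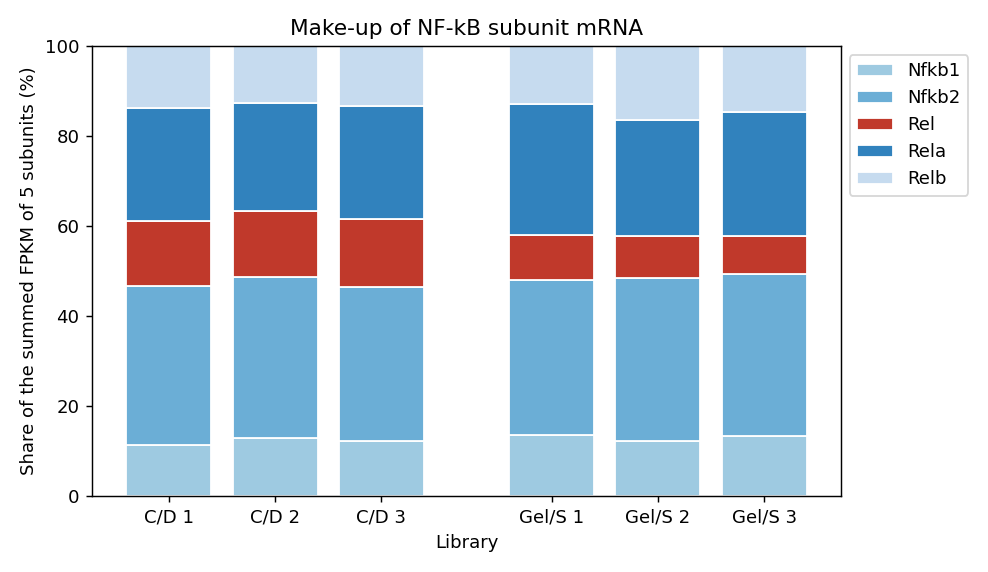
Share of each subunit in the summed FPKM of the 5 subunit genes, 1 bar per library, C/D libraries on the left and Gel/S libraries on the right. The Rel share is 14.4% to 15.2% in C/D and 8.44% to 9.97% in Gel/S.

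Levels between genes depend on the gene length used. The listed length of Nfkb1 is 12061 bases, the union of all its annotated exons, while its longest coding transcript in GENCODE M21 has 4117 bases. The listed length of Nfkb2, 3289 bases, is shorter than its exon union in GENCODE M21, 4584 bases. With the longest coding transcripts as lengths, an alternative chosen after seeing the data, Nfkb1 was the most abundant subunit, at 21.7 ± 1.58 FPKM in C/D and 31.8 ± 2.51 FPKM in Gel/S (SD, n = 3 each). Rel was then the least abundant, at 8.94 ± 0.221 FPKM in C/D and 7.65 ± 0.917 FPKM in Gel/S, and its share of the subunits was 11.3% to 11.8% in C/D and 6.41% to 7.596% in Gel/S. The choice of length leaves the comparison of 1 gene between groups as it is.

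Tnfaip3 encodes A20, a ubiquitin-editing enzyme that ends signalling upstream of IKK (ENSMUSG00000019850, chromosome 10, 19000910 to 19015657, minus strand). It had 3.52, 3.45 and 4.22 FPKM in C/D 1 to 3, against 6.63, 5.57 and 5.85 FPKM in Gel/S 1 to 3. The groups were apart, and the log2 fold change was −0.64 (SE 0.109, edgeR adjusted p = 0.00189). Nfkbie, which encodes IkB epsilon (ENSMUSG00000023947, chromosome 17, 45555703 to 45563169, plus strand), had 14.5, 11.6 and 13.7 FPKM in C/D 1 to 3, against 17.8, 18.0 and 17.4 FPKM in Gel/S 1 to 3. The Gel/S libraries lay close together and the C/D libraries spread below them, with C/D 2 lowest. Its log2 fold change was −0.38 (SE 0.0992, edgeR adjusted p = 0.0168). The call was lost without C/D 2 (log2 fold change −0.29, edgeR adjusted p = 0.0925) or without Gel/S 3 (−0.39, edgeR adjusted p = 0.0513).

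Nfkbia encodes IkB alpha, the fast-turning inhibitor that NF-kB itself induces (ENSMUSG00000021025, chromosome 12, 55489410 to 55492647, minus strand). It had 151.0, 140.6 and 170.5 FPKM in C/D 1 to 3, against 146.8, 185.7 and 171.1 FPKM in Gel/S 1 to 3. The groups overlapped widely. The log2 fold change was −0.08 (95% interval −0.33 to 0.16, edgeR adjusted p = 0.604), which leaves room for a level in C/D from 79.7% to 111.9% of that in Gel/S, and the sign turned without Gel/S 2, where the log2 fold change was below 0.01. Nfkbia made up 81.0 ± 0.489% of the summed FPKM of the 5 inhibitor genes in C/D and 78.4 ± 2.19% in Gel/S (SD, n = 3 each).

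Nfkbib, which encodes IkB beta (ENSMUSG00000030595, chromosome 7, 28758251 to 28767512, minus strand), had 10.99, 10.89 and 12.69 FPKM in C/D 1 to 3, against 12.3, 15.4 and 11.6 FPKM in Gel/S 1 to 3. The groups overlapped, and the log2 fold change was −0.15 (95% interval −0.42 to 0.13, edgeR adjusted p = 0.412). In GENCODE M21, exons of Sirt2 and Ccer2 on the opposite strand overlap Nfkbib. Sirt2 had 999 to 1308 counts in C/D and 1032 to 1227 counts in Gel/S, Ccer2 had 0 counts in all libraries, and the part of Sirt2 in the Nfkbib values was not tested. Nfkbiz encodes IkB zeta, a nuclear member of the IkB family that acts as a co-activator at some NF-kB target genes (ENSMUSG00000035356, chromosome 16, 55811375 to 55838899, minus strand). It had 6.68, 8.05 and 8.12 FPKM in C/D 1 to 3, against 9.81, 9.30 and 8.09 FPKM in Gel/S 1 to 3. Only Gel/S 3 reached into the C/D range, and the log2 fold change was −0.21 (95% interval −0.44 to 0.03, edgeR adjusted p = 0.163).

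By listed length, the order of mean levels in C/D was Nfkbia, Nfkb2, Rela, Nfkbie, Nfkbib, Rel, Relb, Nfkbiz, Nfkb1 and Tnfaip3. The ranges over libraries overlapped for 3 neighbouring pairs in this order, Nfkbie with Nfkbib, Relb with Nfkbiz and Nfkbiz with Nfkb1. In Gel/S the order was Nfkbia, Nfkb2, Rela, Nfkbie, Nfkbib, Relb, Nfkb1, Nfkbiz, Rel and Tnfaip3, with overlap of Nfkbib with Relb, Relb with Nfkb1 and Nfkbiz with Rel. Rel thus stood in place 6 in C/D and in place 9 in Gel/S, places that depend on the listed lengths. With the longest coding transcripts as lengths, Rel at 8.94 FPKM in C/D stood between Nfkbiz (9.29) and Tnfaip3 (6.10). In Gel/S its 7.65 FPKM was then the lowest mean of all members, below Tnfaip3 (9.83).

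Set against each other, inhibitor and subunit mRNA stood in a ratio of 3.10, 2.84 and 3.47 (summed FPKM of the 5 inhibitors over that of the 5 subunits) in C/D 1 to 3, against 2.24, 2.86 and 2.67 in Gel/S 1 to 3. The mean was higher in C/D, but C/D 2 lay just below Gel/S 2, so by the listed lengths the groups overlapped. Without Nfkbia the ratio was 0.553 to 0.643 in C/D and 0.536 to 0.591 in Gel/S, again with overlap. The size of these summed ratios, and whether the groups overlap, depend on the gene lengths used. They are not given here with the longest coding transcripts as lengths. The ratio of Nfkbia to Rela FPKM did not overlap, with 10.03, 9.53 and 11.29 in C/D 1 to 3, against 5.86, 8.80 and 7.76 in Gel/S 1 to 3. Of the other ratios computed between single genes, that of Nfkbia to Tnfaip3 did not overlap either, nor did that of Rel to Rela above. Those of Nfkb1 to Nfkb2 and of Relb to Rela overlapped. All these ratios are descriptions, without a test.

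The authors' deposited table, which holds the authors' own test with its sign turned here to C/D over Gel/S, gave log2 fold changes of −0.60 for Rela, −0.58 for Relb, −0.55 for Nfkb1, −0.46 for Nfkb2, −0.69 for Tnfaip3 and −0.42 for Nfkbie. In the authors' deposited table the adjusted p of these 6 genes was 5.41e-06 to 0.00431, against 0.149 for Rel (log2 fold change 0.22) and 0.150 to 0.449 for Nfkbiz, Nfkbib and Nfkbia. The authors' deposited table has an adjusted p under 0.05 for 14.9% of the 21850 genes with one.

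The 3 tested genes whose pattern over the 6 libraries was closest to that of Nfkbia (root mean square distance in log2 CPM centred on each gene's mean) were Mrpl38 at 0.0260, Pym1 at 0.0414 and Nbn at 0.0416, where the median gene was at 0.237. None of the 3 was called between the groups, which adds nothing, as they were chosen for likeness to Nfkbia over the same libraries. Over 6 libraries such likeness is a description only. Among pairs of the 10 genes, Nfkb1 and Rela were the closest, at 0.0749.

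**Figure D4:**
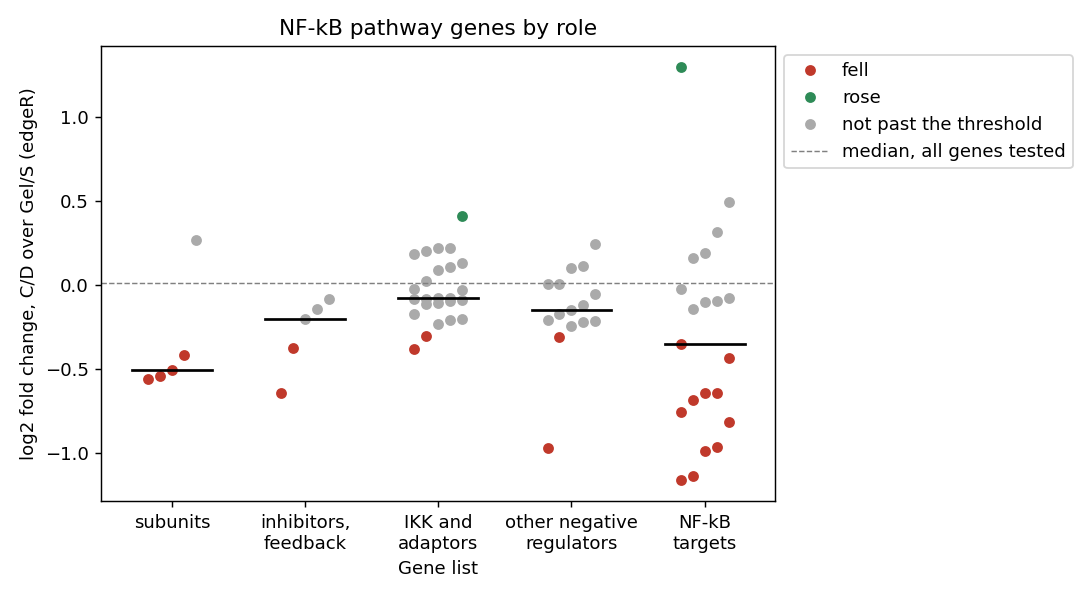
log2 fold change of each tested gene, C/D over Gel/S, by role in the pathway, with list medians as black bars and the median of all tested genes as a dashed line. The medians are −0.51 for subunits, −0.21 for inhibitors and feedback genes, −0.08 for IKK and adaptor genes, −0.15 for other negative regulators and −0.35 for NF-kB targets.

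The signalling steps that lead to NF-kB were read from a list of kinases and adaptors. Of 25 genes of the IKK complex and its adaptors, all tested, 1 rose and 2 fell, where 13.1% of all tested genes rose and 13.9% fell, and the median log2 fold change was −0.08. Birc2, which encodes a ubiquitin ligase of the TNF receptor complex, rose to 18.9 ± 0.254 FPKM in C/D, against 14.7 ± 0.455 FPKM in Gel/S (SD, n = 3 each; log2 fold change 0.41, edgeR adjusted p = 0.00401). Its relative Birc3, itself an NF-kB target, fell (log2 fold change −0.30, edgeR adjusted p = 0.0196), and so did Ripk1, a kinase and scaffold of that complex (−0.38, edgeR adjusted p = 0.0214). Both falls were lost with single libraries left out, Ripk1 without C/D 1, C/D 2 or C/D 3 (edgeR adjusted p = 0.0512 to 0.0850) and Birc3 without C/D 1, C/D 2 or Gel/S 3 (0.0545 to 0.107). The IKK subunits Chuk (log2 fold change −0.08), Ikbkb (−0.03) and Ikbkg (0.20) did not pass.

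Among 15 other negative regulators, all tested, 2 fell and none rose, a share fallen of 13.3%, close to the 13.9% of all tested genes, and the median log2 fold change was −0.15. Both encode partners of A20. Tnip3 had 12.2, 12.3 and 13.2 FPKM in C/D 1 to 3, against 23.0, 27.6 and 25.4 FPKM in Gel/S 1 to 3, and log2 C/D over Gel/S was −0.97 (SE 0.0966, edgeR adjusted p = 0.000111). The C/D levels were about equal and far below those of Gel/S, and the call held without each library in turn. Tnip1 fell by 0.31 on the log2 scale (edgeR adjusted p = 0.0284), a call lost without C/D 2, C/D 3, Gel/S 2 or Gel/S 3 (0.0554 to 0.132).

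Of 29 NF-kB target genes, 21 were expressed highly enough to be tested, of which 11 fell, 1 rose and 9 did not pass, and the median log2 fold change was −0.35. Of all genes tested, 13.9% fell and 13.1% rose. The calls with the smallest adjusted p were Plau, Plaur and Bcl2l1. Plau, the urokinase gene, had 47.2, 49.99 and 54.7 FPKM in C/D 1 to 3, against 107.2, 101.9 and 101.8 FPKM in Gel/S 1 to 3 (log2 fold change −0.99, edgeR adjusted p = 6.29e-05). Its receptor gene Plaur fell by 1.17 on the log2 scale (edgeR adjusted p = 9.80e-05), and Bcl2l1, a survival gene, by 0.82 (edgeR adjusted p = 0.000268). The single riser was the chemokine gene Ccl5, with 5.85, 2.14 and 3.19 FPKM in C/D 1 to 3, against 0.717, 2.07 and 1.81 FPKM in Gel/S 1 to 3. The groups nearly met, and its call (log2 fold change 1.30, edgeR adjusted p = 0.0417) was lost without C/D 1, C/D 3, Gel/S 1 or Gel/S 3 (edgeR adjusted p = 0.0736 to 0.202). Some classical targets, Il6, Cxcl1, Cxcl3 and Vcam1, were at or near 0 FPKM in both groups. Others were expressed. Tnf, at 167.9 FPKM in C/D and 277.9 FPKM in Gel/S on average, fell (log2 fold change −0.68, edgeR adjusted p = 0.000456). Icam1 (−0.64, edgeR adjusted p = 0.000431) and Cxcl2 (−1.14, edgeR adjusted p = 0.00306) fell too. Ccl3, at 491.5 FPKM in C/D and 516.0 FPKM in Gel/S on average, did not pass (−0.03, edgeR adjusted p = 0.860).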

How the data were processed

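RNA of RAW264.7 cells was sequenced from 3 C/D and 3 Gel/S libraries (SMARTER mRNA-Seq kit, per the labels). The deposited table gives raw counts per gene and library, made by the authors. It also gives FPKM values, which the authors computed from the listed gene length and a library total scaled in a way no source states. Columns of scaled signal in it are mean values of each group, made by the authors. The authors also deposited log2 fold changes, as Gel/S over C/D, with p-values from a test that is not named. The genome build was GRCm38 (mm10), per the submitters' processing notes, and whether counting used strand is not given.

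Entries sharing a symbol (100 symbols) were summed, and 27 symbols turned into dates were restored by gene ID. Genes with a mean FPKM of at least 1, holding over 99% of the counts, were tested on counts with edgeR 4.0.16 (R 4.3.3, quasi-likelihood test, TMM factors, Benjamini-Hochberg adjustment, threshold 0.05). Standard errors were taken as the absolute log2 fold change divided by the root of the F statistic. limma 3.58.1 and DESeq2 1.42.0 served as alternatives. The fit was tested on simulated data. In each pair, replicates differed by more than counting noise, but to unequal degrees. The mean squared difference, over the variance expected from counting, was 3.55 for C/D 2 and C/D 3. It was 45.9 for Gel/S 1 and Gel/S 2 and 20.0 for Gel/S 1 and Gel/S 3. The genes named are the 10 members, up to 3 called genes per pathway list by smallest adjusted p, the 3 genes closest to Nfkbia and genes that overlap a member. Others were named after their values were seen. These are the single riser among the targets, the IKK subunits, 2 called osteoclast markers, Csf1r and the targets at or near 0. Tnf, Icam1, Cxcl2 and Ccl3 were also named in this way. The members and lists were chosen with earlier results of these data known, and the motifs and the transcript lengths after the members' values had been seen.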

Additional observations from a re-analysis of the deposited data

How the results depend on the processing

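Over the 14 alternatives run for each of the 10 members, 135 of 140 values kept their direction and their side of the threshold. The falls of Rela, Relb, Nfkb1, Nfkb2 and Tnfaip3 held in all 14. With upper quartile factors Rel passed (log2 fold change 0.30) and 1 subunit rose. With single libraries left out, log2 fold changes ranged from −0.56 to −0.45 for Nfkb1, −0.44 to −0.39 for Nfkb2, 0.18 to 0.35 for Rel, −0.61 to −0.49 for Rela, −0.60 to −0.46 for Relb, −0.18 to 0.0019 for Nfkbia (sign turned without Gel/S 2), −0.23 to −0.0062 for Nfkbib, −0.45 to −0.29 for Nfkbie, −0.29 to −0.13 for Nfkbiz and −0.74 to −0.58 for Tnfaip3. Counts with single libraries left out were 887 to 1989 genes risen and 876 to 2089 fallen (1532 and 1631 with all libraries), 0 to 1 subunits risen, 1 to 2 inhibitors fallen, 1 to 2 IKK and adaptor genes risen and 0 to 5 fallen, 1 to 4 other negative regulators fallen, and 0 to 2 targets risen and 8 to 11 fallen. The median log2 fold change of the IKK and adaptor list ranged from −0.084 to 0.0039, above 0 only without Gel/S 1. The cause was not tested for any of these. Genes risen numbered 1020 with limma on log2(FPKM + 1), 1008 with a pseudocount of 0.1 and 633 on TPM, where 1471, 1492 and 1510 fell, and in these 3 fits 0 targets rose. On TPM the median of all genes was −0.12, and 0 IKK and adaptor genes rose, 4 fell and 4 other negative regulators fell. Relative to that median, Rela was at −0.56, Tnfaip3 at −0.60 and Rel at 0.25. The replicate numbers showed no clear pairing of the samples. Deviations of same-numbered libraries correlated at −0.057, −0.059 and 0.045, and no C/D library correlated best with its own number. So few values, taken around means of 3 libraries, cannot decide whether a weak pairing was present. With the replicate number as a block, 1242 genes rose and 1302 fell, 4 subunits and 2 inhibitors fell, 1 other negative regulator fell and 0 targets rose.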
